A study of Homo sapiens with 2 samples.

Results

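HES6, INSM1, NEUROG2, NEUROD1, EOMES, NHLH1, GADD45G and IGFBPL1 are 8 of the 36601 genes counted in single cells of human astrocyte progenitor cultures at 2 late days of differentiation. They were chosen by name, matched by symbol in both libraries, as genes that are switched on while a neural stem cell turns into a neuron. All 8 were found, and all had at least 1 UMI (unique molecular identifier, standing for 1 captured RNA molecule) at each day. The cultures came from the human embryonic stem cell line H7 and, per the labels, received LIF, BMP4 and FGF1. The day 220 group was 1 library of such H7 progenitors and the day 160 group was 1 library of the same line with the same agents. Each library pooled 3 differentiations that no label separates, so neither day had a replicate, and values are given without tests or p-values.

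Proneural factors are basic helix-loop-helix (bHLH) proteins that pair with the E proteins TCF3, TCF4 or TCF12 and bind short DNA motifs called E-boxes. They switch on neuronal genes together with Notch ligands such as DLL1, and the ligand activates Notch in neighbouring cells, where the repressors HES1 and HES5 hold back neurogenesis. In the developing cortex, NEUROG2 drives the glutamatergic lineage, EOMES (also called TBR2) marks the intermediate progenitors that divide away from the ventricle, and NEUROD1 and NHLH1 act in later precursors and young neurons. GABAergic interneurons arise in the ventral forebrain and are marked by DLX genes.

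Cells were kept if they had at least 1000 detected genes and if mitochondrially encoded genes gave no more than 15% of their UMIs. This left 524 of 676 barcodes at day 220 with 25981066 UMIs and a median of 46438 UMIs per cell, and 9972 of 13018 barcodes at day 160 with 128847264 UMIs and a median of 10457.5. One UMI was worth 0.0385 CPM (UMIs per 10⁶ UMIs of the library) at day 220 and 0.00776 CPM at day 160. Mitochondrially encoded genes took 8.79% of UMIs at day 220 and 11.7% at day 160. The kept cells of the libraries shared 2 barcodes. Markers of the labelled cell type went both ways. SOX2 had 498 CPM and GFAP 135 CPM at day 220, against 990 and 547 CPM at day 160. AQP4, a marker of mature astrocytes, had 2.08 and 5.10 CPM. S100B instead had 568 CPM at day 220 and 171 CPM at day 160, and NES had 580 and 351 CPM. The astrocyte list summed to 1129 CPM at day 220 and 953 CPM at day 160, and the radial glia list to 12760 and 11670 CPM. Listed microglial and endothelial genes each summed to under 1 CPM at both days. The interneuron list summed to 575 CPM at day 220 and 1280 CPM at day 160, the cell division list to 382 and 1485 CPM, and the neuroendocrine list to 208 and 48.6 CPM, and the part of these in the differences between days was not tested.

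The CPM of 6 of the 8 genes was lower at day 220 than at day 160 by more than counting error, and GADD45G was the gene with the lowest ratio among those with over 3 UMIs at each day. Intervals in parentheses are 95% intervals for counting error only and do not cover differences between cultures. Those for CPM treat UMIs as independent, although several can come from 1 cell. For NEUROG2 and EOMES, the intervals for the share of cells with a UMI overlapped between the days. GADD45G and HES6 are shown first, with the 250 bases before their start as annotated by RefSeq on GRCh38.p14, because they had the lowest day 220 to day 160 ratios among the genes that reached 10 CPM and their windows held the same E-box. NHLH1 is added because its window held CAGATG, another E-box searched. Capitals mark CAGCTG or CAGATG (either strand) and, in HES6, the TATA box letters TATAAA. The windows are chr9:89604762-89605011 on the plus strand for GADD45G, chr2:238240039-238240288 on the minus strand for HES6, whose RefSeq start lies inside the longer gene span that GENCODE gives, and chr1:160366821-160367070 on the plus strand for NHLH1.
GADD45G: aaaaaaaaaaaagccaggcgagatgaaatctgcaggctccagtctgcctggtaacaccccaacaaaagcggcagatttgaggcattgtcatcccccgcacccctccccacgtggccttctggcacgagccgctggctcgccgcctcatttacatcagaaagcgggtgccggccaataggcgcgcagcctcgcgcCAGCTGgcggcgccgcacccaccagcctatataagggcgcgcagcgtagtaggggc
HES6: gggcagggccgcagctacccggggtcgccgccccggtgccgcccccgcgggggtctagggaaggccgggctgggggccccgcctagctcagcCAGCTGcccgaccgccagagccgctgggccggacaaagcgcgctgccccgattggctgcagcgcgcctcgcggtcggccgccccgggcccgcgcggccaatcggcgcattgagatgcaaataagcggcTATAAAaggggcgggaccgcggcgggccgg
NHLH1: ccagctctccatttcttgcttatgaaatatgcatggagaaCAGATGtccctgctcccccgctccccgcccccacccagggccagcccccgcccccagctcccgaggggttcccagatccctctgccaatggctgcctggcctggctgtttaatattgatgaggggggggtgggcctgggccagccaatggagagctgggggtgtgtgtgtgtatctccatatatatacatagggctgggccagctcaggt

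CAGCTG, an E-box that reads the same on both strands, began 56 bases before the GADD45G start and 158 bases before the HES6 start, and it was in 14.0% of the 35116 RefSeq promoter windows of the same length. CAGATG, read on both strands, began 210 bases before the NHLH1 start and was in 12.2% of all windows. Of the 7 genes with a window, NEUROG2, NEUROD1, EOMES and IGFBPL1 had neither motif. The E-box CACGTG began 143 bases before the GADD45G start (6.35% of all windows), and CACNAG, the N-box, began 128 and 37 bases before it (32.0% of all windows). TGGGAA, the motif of the Notch partner RBPJ, began 142 bases before the NHLH1 start (20.9%), and TATAAA was in HES6 and, on the other strand, EOMES (10.7%). All were read on both strands, and no others were searched. A match describes letters in the window and is not a binding site.

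GADD45G, a member of the growth arrest and DNA damage family that is expressed in neuronal precursors, lies on chromosome 9 (89605013 to 89606555, plus strand, GRCh38). At day 220 it had 236 UMIs in 109 cells, or 9.08 CPM (7.96 to 10.3), and at day 160 it had 6523 UMIs in 3049 cells, or 50.6 CPM (49.4 to 51.9). The level was 5.57-fold lower at day 220 (4.89 to 6.37). On log2 of CPM + 1 the difference was -2.36, and -3.26 with every cell thinned to 5000 UMIs. Its relatives did not share this direction: GADD45A had 111 CPM at day 220 and 41.4 CPM at day 160, and GADD45B had 17.1 and 10.6 CPM.

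HES6, a bHLH protein that in mouse opposes HES1 and promotes neuronal differentiation, lies on chromosome 2 (238238267 to 238240662, minus strand), where AC012485.1 overlaps it on the opposite strand. It had 41.6 CPM (39.2 to 44.2) at day 220, from 1081 UMIs, and 113 CPM (111 to 115) at day 160, from 14516 UMIs. The level was 2.71-fold lower at day 220 (2.55 to 2.88). Of the repressors that HES6 is set against in this background, HES5 had 39.4 CPM at day 220 and 328 CPM at day 160, and was 8.32-fold lower (7.82 to 8.87), while HES1 had 46.3 and 42.8 CPM.

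INSM1, a zinc finger repressor that in mouse promotes the formation of intermediate progenitors, is a gene without introns on chromosome 20 (20368121 to 20370949, plus strand). Its day 220 level was 31.6 CPM (29.4 to 33.8), from 820 UMIs, against 73.2 CPM (71.8 to 74.7) from 9437 UMIs at day 160, which is 2.32-fold lower at day 220 (2.16 to 2.50). IGFBPL1, a secreted protein related to the insulin-like growth factor-binding proteins, lies on chromosome 9 (38408994 to 38424447, minus strand). At day 220 it stood at 28.4 CPM (26.4 to 30.6), from 739 UMIs, against 55.7 CPM (54.4 to 57.0) from 7176 UMIs at day 160. Its ratio, 1.96-fold lower (1.82 to 2.11), was just short of the 2-fold mark that INSM1 passed.

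NEUROG2, the proneural bHLH factor (chromosome 4, 112513516 to 112516172, minus strand, overlapped on the opposite strand by AC023886.1), had 3 UMIs in 3 of 524 cells at day 220, or 0.115 CPM (0.0238 to 0.337). At day 160 it had 268 UMIs in 129 of 9972 cells, or 2.08 CPM (1.84 to 2.34), with up to 22 UMIs in 1 cell. The ratio was 18.0-fold lower at day 220, with a counting interval of 6.10 to 87.9. EOMES, the T-box factor of intermediate progenitors (chromosome 3, 27715949 to 27722711, minus strand), had 3 UMIs at day 220, all in 1 cell of the mesenchymal-like cluster, or 0.115 CPM, and 219 UMIs in 116 cells at day 160, or 1.70 CPM (1.48 to 1.94). Its ratio was 14.7-fold lower at day 220 (4.97 to 71.9). Both genes were rare at both days, and the wide intervals come from the 3 UMIs at day 220. These intervals do not allow for several UMIs coming from 1 cell. By cells, without thinning, NEUROG2 was seen in 0.573% at day 220 (0.118 to 1.66) and 1.29% at day 160 (1.08 to 1.54). EOMES was seen in 0.191% (0.00483 to 1.06) and 1.16% (0.962 to 1.39). The intervals overlap for both genes, but overlap is not a test, and with 524 cells at day 220 a difference in shares was not tested. Day 220 cells were also deeper, with a median of 46438 UMIs against 10457.5, and greater depth raises such shares.

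The later bHLH factors did not differ between the days beyond counting error. NEUROD1 (chromosome 2, 181673088 to 181680876, minus strand) had 1 UMI at day 220, or 0.0385 CPM, and 29 UMIs in 18 cells at day 160, or 0.225 CPM (0.151 to 0.323). The ratio of 5.85-fold lower had an interval of 0.97 to 239, and CERKL overlaps the gene on the same strand, so its counts are uncertain. NHLH1 (chromosome 1, 160367067 to 160372848, plus strand) had 14 UMIs in 13 cells at day 220, or 0.539 CPM (0.295 to 0.904), and 101 UMIs in 79 cells at day 160, or 0.784 CPM (0.638 to 0.952). The ratio was 1.45-fold lower at day 220, with an interval of 0.83 to 2.76.

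**Figure D1:**
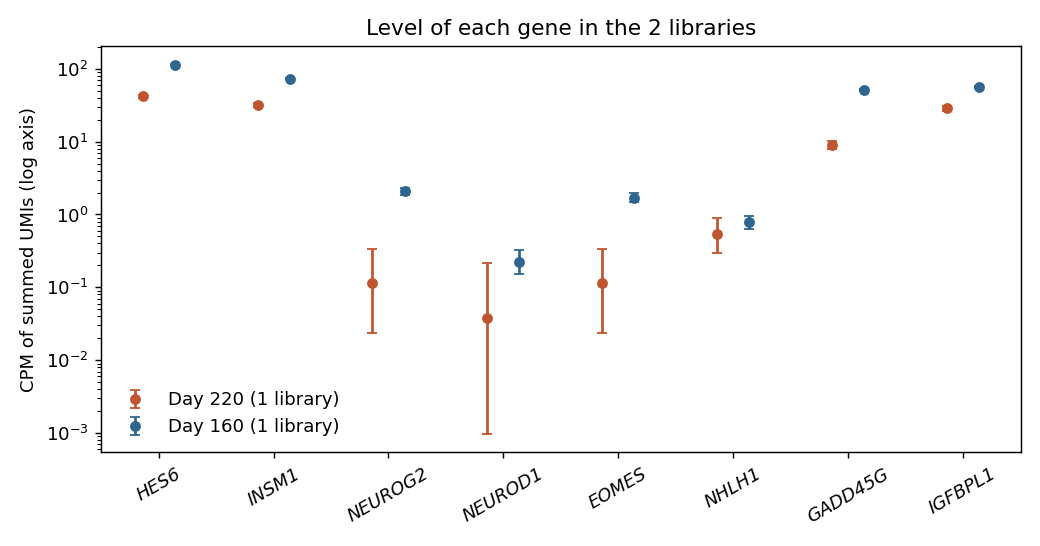
Levels of the 8 genes in CPM of UMIs summed over kept cells, on a logarithmic axis, at day 220 and day 160, with 95% Poisson bars for counting error. HES6, INSM1, IGFBPL1 and GADD45G lie between 9.08 and 41.6 CPM at day 220 and between 50.6 and 113 CPM at day 160, and the other genes lie under 3 CPM at both days.

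Of the 4 genes that reached 10 CPM at 1 day or more, 3 (HES6, INSM1 and GADD45G) were at least 2-fold lower at day 220 on log2 of CPM + 1, beside 5.15% of the 10167 genes that reached that level. Of the same 10167 genes, 22.8% were at least 2-fold higher at day 220. With a minimum of 1 CPM, 6 genes were counted and 5 were lower, NEUROG2 and EOMES being added, beside 4.57% of 15848 genes. Gene length moves with this comparison: among genes of at least 10 CPM with 1 to 1000 bases of intron, such as HES6 (359 bases) and GADD45G (221 bases), 13.0% were at least 2-fold lower and the median log2 difference was -0.45, against 0.14 over all genes. Centred on genes of like intron length, which takes the median of all genes to 0.00, GADD45G had a log2 difference of -1.89, HES6 -0.95, INSM1 -0.86, IGFBPL1 -0.71, NEUROG2 -0.997 and EOMES -0.89. On this scale of CPM + 1, GADD45G alone then stayed at least 2-fold lower, and NEUROD1 and NHLH1 turned slightly positive, at 0.08 and 0.17. Adding 1 CPM shrinks the differences of genes of few CPM. By CPM alone, before centring, NEUROG2 was 18.0-fold, EOMES 14.7-fold and NEUROD1 5.85-fold lower at day 220. Ratios without the added 1 CPM were not centred. The same centring gave 767 lower and 1046 higher genes, against 524 lower and 2318 higher as measured.

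Shares of cells with a UMI depend on depth, so each cell was thinned to 5000 UMIs, which left 494 cells at day 220 and 9279 at day 160, with 30 and 693 shallower cells left out. GADD45G was then seen in 2.63% of cells at day 220 (1.41 to 4.46) and in 19.7% at day 160 (18.9 to 20.5). INSM1 was seen in 13.8% (10.9 to 17.1) and 30.01% (29.1 to 31.0), IGFBPL1 in 16.0% (12.9 to 19.5) and 24.5% (23.6 to 25.3), and HES6 in 18.2% (14.9 to 21.9) and 33.1% (32.2 to 34.1) at day 220 and day 160. Without thinning, the deeper day 220 cells gave higher shares for HES6, 63.9% at day 220 and 51.1% at day 160, which runs against its CPM. The same held for INSM1 (50.95% and 41.2%) and NHLH1 (2.48% and 0.792%). Intervals overlapped for IGFBPL1 (35.3% and 33.8%) and NEUROD1 (0.191% and 0.181%), and GADD45G stayed lower at day 220, at 20.8% and 30.6%.

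Free RNA in the droplets can give a UMI to a cell that does not express the gene. The shares are therefore set beside those in the mesenchymal-like cells, which carry COL1A1, ACTA2 and TAGLN. Other genes of that list were nearly absent: COL3A1 had 0 UMIs at day 220 and 7 at day 160, DCN 2 and 0, and LUM 0 and 2. TNC, of the radial glia list, was among the 30 leading genes of the day 160 cluster. Whether the mesenchymal-like cells themselves express the 8 genes was not tested, so they are a comparison and not a blank. Their median depths before thinning were 83008 UMIs at day 220 and 32359 at day 160. In them HES6 was seen in 17.3% of 52 cells at day 220 (8.23 to 30.3) and in 16.1% of 211 cells at day 160 (11.4 to 21.8). The day 220 share of HES6 over all cells lies within the first of these intervals, although its CPM of all UMIs was 41.6 (39.2 to 44.2) over all day 220 cells and 27.4 (22.8 to 32.6) in the mesenchymal-like ones. INSM1 was seen in 3.85% of these cells at day 220 (0.469 to 13.2), an interval that overlaps its share over all cells, and in 4.74% at day 160 (2.30 to 8.54), which does not. IGFBPL1 was seen in 1.92% of them at day 220 (0.0487 to 10.3), against 2.37% at day 160 (0.774 to 5.44), both apart from its shares over all cells. GADD45G was seen in 0 of 52 at day 220 (interval up to 6.85%, which holds its share over all cells) and in 4.74% at day 160. These cells were not the lowest at day 160, where the cluster led by HLA class II genes had IGFBPL1 at 1.76 CPM (1.37 to 2.22) against 4.10 CPM (2.95 to 5.54), and how much of their UMIs was free RNA was not tested.

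NEUROG2, NEUROD1 and EOMES were seen in 0 of 494 thinned cells at day 220, a count that allows up to 0.607% of cells with a UMI (3 cells of 494). At day 160 they were seen in 0.754%, 0.0754% and 0.668% of cells. NHLH1 was seen in 0.202% of cells at day 220 and in 0.388% at day 160. The day 160 shares of NEUROG2 and EOMES lie just over the day 220 limit. Their intervals, 0.589% to 0.952% and 0.513% to 0.856%, reach under it. The NEUROD1 share lies under the limit, and the day 160 share of NHLH1 lies within its day 220 interval (0.00513% to 1.12%). With 494 cells at day 220, a difference in these shares was not tested. Cells with none of the 8 genes made up 58.7% at day 220 (54.2 to 63.1) and 38.4% at day 160 (37.4 to 39.4), and cells with 3 of them made up 1.01% (5 cells, the most found in any cell of that day) at day 220 and 9.85% (914 cells) at day 160.

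To see which cells carried the genes, each library was clustered alone without the 8 genes and without 45 companion genes of the same pathway. At day 160, HES6 was highest in the unnamed cluster led by PCLAF, TYMS and CLSPN, genes of DNA replication (cluster 3, 232 CPM, 226 to 239), followed by the cycling-like cluster led by CDC20 and UBE2C (192 CPM, 185 to 200). It was low in the cluster led by HLA class II genes, which also held GFAP (cluster 1, 40.4 CPM), and in the mesenchymal-like cells (27.7 CPM). INSM1 and IGFBPL1 were highest elsewhere. INSM1 had 237 CPM in the unnamed cluster led by CRABP1 and HOXB6 (cluster 4), which had 4 of the 12 neuronal markers, ELAVL3, ELAVL4, SNAP25 and SYT1, among its 30 leading genes, and 210 CPM in the interneuron-like cluster led by CALB2 and SCGN (cluster 2). IGFBPL1 had 247.5 and 160.5 CPM in the same clusters, and at most 75.7 CPM in any other.

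The rare factors had a common place at day 160. An unnamed cluster of 948 cells led by LMO1, DHRS3, SERPINF1 and OLIG1 (cluster 5), holding 7.63% of the library's UMIs, held 51.1% of NEUROG2 UMIs, 49.3% of EOMES UMIs, 35.6% of NHLH1 UMIs and 13 of the 29 NEUROD1 UMIs. With finer clustering, at resolution 1.0, the leading cluster held 35.1% of NEUROG2 and 28.3% of EOMES UMIs. NEUROG2 had 13.9 CPM (11.7 to 16.5) in cluster 5 and 1.10 CPM in the other cells. EOMES had 10.99 CPM (9.01 to 13.3) there and 0.93 CPM in the others, and NHLH1 3.66 CPM (2.57 to 5.07) and 0.55 CPM. GADD45G was also highest there, at 169 CPM (161 to 177) against 40.9 CPM in the other cells, and so was seen in 37.2% of its thinned cells. IGFBPL1 was not, at 23.1 CPM in cluster 5 and 58.4 CPM in the others.

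The day 220 clusters were made separately and are not matched to those of day 160. GADD45G was highest in an unnamed cluster of 30 cells led by CHRNA1, GLCCI1 and RIC3 (cluster 6), at 54.0 CPM (42.3 to 68.0) against 6.65 CPM in the other cells, and this cluster held 72 of its 236 UMIs. INSM1 (77.3 CPM), HES6 (66.8 CPM) and IGFBPL1 (61.5 CPM) were present in it too, whereas NEUROG2 had 1 UMI and EOMES none. INSM1 and IGFBPL1 were highest in a cluster of 25 cells led by BRINP1, CALB2 and PDE4D, which also held DCX, at 118 CPM (88.6 to 155) and 141 CPM (108 to 180), with GADD45G at 1 UMI there. The interneuron-like cluster held 65.6% of IGFBPL1 UMIs at 86.2 CPM. HES6 was highest in the cycling-like cluster, at 78.8 CPM (66.8 to 92.2), which is under its level of 113 CPM over the whole day 160 library.

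**Figure D2:**
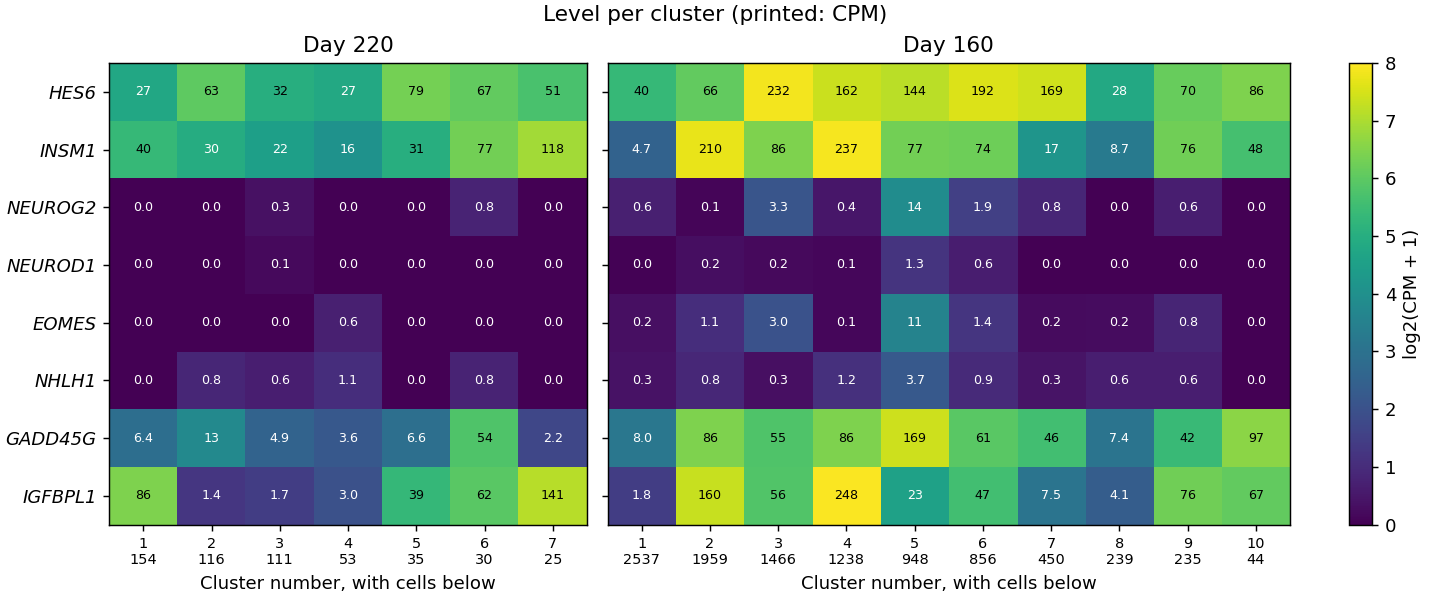
Level of each gene in each cluster of the day 220 library (left) and the day 160 library (right), in CPM printed in the cells and coloured on a log2(CPM + 1) scale, with the number of cells under each cluster number. At day 160, NEUROG2, EOMES, NHLH1 and GADD45G are highest in cluster 5, INSM1 and IGFBPL1 in cluster 4, and HES6 in cluster 3.

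Cells were next ordered by the share of their UMIs from a list of 12 neuronal genes, and divided in 5 equal ranges, with levels in CPM over the thinned cells. A few genes weigh most in this order. Over all kept cells, TUBB3 gave 1324 of the list's 2176 CPM at day 160. At day 220, MAP2 gave 794 CPM and TUBB3 403 CPM of 1845 CPM, and STMN2 had 1 UMI. The ranges are therefore not alike between the days, and are not stages of neuronal maturity. At day 160, IGFBPL1 was 8.62, 20.3, 44.3, 121 and 205 CPM in ranges 1 to 5. INSM1 followed the same course, at 18.4, 37.9, 69.5, 158 and 240 CPM. HES6 instead was highest in range 4, at 93.6, 117, 155.5, 173 and 113 CPM, and so was GADD45G, at 22.8, 39.1, 62.3, 104 and 86.5 CPM. The highest neuronal range therefore had the highest INSM1 and IGFBPL1, but HES6 and GADD45G were lower in it than in the range before it by more than counting error. The neuron-like cluster 10 of day 160, with 44 cells and STMN2, SNAP25 and SYT1 among its leading genes, did not have the highest levels. Over all its UMIs, INSM1 had 48.5 CPM (25.8 to 82.9) and IGFBPL1 67.1 CPM (39.8 to 106).

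NEUROG2 and EOMES showed no such course at day 160, and stayed between 0.75 and 3.13 CPM in all 5 ranges. NHLH1 was 2.16 CPM (1.32 to 3.33) in range 5 and 0.65 CPM (0.24 to 1.41) in range 1. At day 220, IGFBPL1 was 104 CPM (77.5 to 137) in range 5 and 14.1 CPM (5.69 to 29.1) in range 1. INSM1 was 61.2 CPM (41.3 to 87.4) and 24.2 CPM (12.5 to 42.4) in those ranges, and HES6 57.1 CPM (38.0 to 82.6) and 26.3 CPM (14.0 to 44.9), with intervals that overlap for both genes. GADD45G was 0, 2.02, 4.04, 6.06 and 16.3 CPM in day 220 ranges 1 to 5, on 0 to 8 UMIs a range, and so was highest in range 5.

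**Figure D3:**
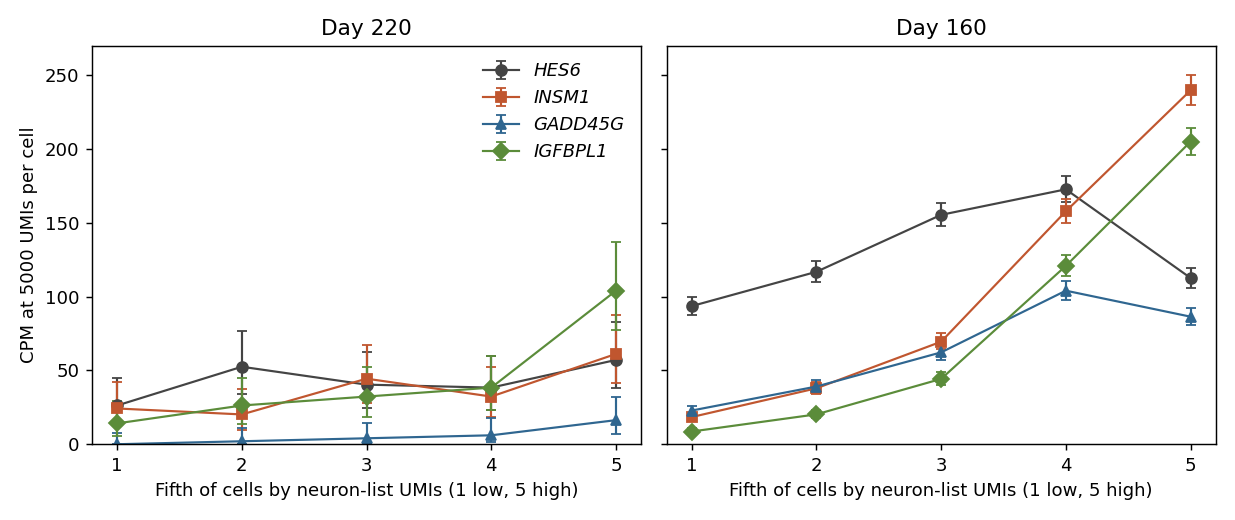
Level of HES6, INSM1, GADD45G and IGFBPL1 in 5 equal ranges of cells ordered by neuronal gene share, at day 220 and day 160, in CPM over cells thinned to 5000 UMIs, with 95% Poisson bars. At day 160, INSM1 and IGFBPL1 reach 240 and 205 CPM in range 5, and HES6 and GADD45G are highest in range 4, at 173 and 104 CPM. Ranges are set within each day and are not matched between days.

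HES6 was higher in dividing cells. At day 160, in the 1335 thinned cells with a UMI of both MKI67 and TOP2A, HES6 had 234 CPM (223 to 246), against 113 CPM (110 to 116) in the other 7944 cells. IGFBPL1 was lower in the dividing cells, at 56.0 CPM (50.5 to 62.0) against 83.8 CPM (81.0 to 86.7), and so was INSM1, at 93.9 CPM (86.7 to 102) against 106.5 CPM (103 to 110). GADD45G had 60.8 CPM (55.1 to 67.0) and 63.3 CPM (60.9 to 65.8), intervals that overlap. At day 220 only 14 cells had both division genes, and HES6 had 4 UMIs in them.

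Which genes were found in the same cells was counted in the thinned cells of day 160. Of the 70 cells with a NEUROG2 UMI, 14 also had EOMES (interval 11.4% to 31.3%), against 0.521% (0.385 to 0.691) of cells without NEUROG2. GADD45G was seen in 47.1% of the NEUROG2 cells (35.1 to 59.5) against 19.5% of the others, and in 62.9% of the 62 EOMES cells (49.7 to 74.8) against 19.4%. In the 855 cluster 5 cells with neither NEUROG2 nor EOMES, GADD45G was seen in 35.2% (32.0 to 38.5). That interval overlaps the one of the NEUROG2 cells but not the one of the EOMES cells. INSM1 was seen in 54.8% of EOMES cells (41.7 to 67.5) and 29.9% of the others, but in 32.9% of NEUROG2 cells (22.1 to 45.1) and 29.99% of the others, where the intervals overlap. IGFBPL1 was seen in 21.4% of NEUROG2 cells (12.5 to 32.9) and 24.5% of the others.

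INSM1 and IGFBPL1 formed the most frequent pair. Of the 2269 cells with IGFBPL1, 59.7% had INSM1 (57.7 to 61.7), against 20.4% of cells without it. With barcodes marked as doublets left out, this share was 61.4%, and the share of NEUROG2 cells with EOMES was 21.2%. At day 220, INSM1 was seen in 22.8% of the 79 IGFBPL1 cells (14.1 to 33.6) and in 12.1% of the others (9.08 to 15.6), intervals that overlap.

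The 14 cells with both NEUROG2 and EOMES were chosen after their counts were seen, and are described without a test. Of these, 11 were in cluster 5 and 2 in cluster 3, none was marked as a doublet, and their median depth before thinning was 10136.5 UMIs, against 11050 in the 9161 cells with neither gene. They had GADD45G at 471 CPM (324.5 to 662) against 60.5 CPM in the cells with neither, HES6 at 400.0 CPM (266 to 578) against 129 CPM, and INSM1 at 271 CPM (163 to 424) against 104 CPM. NEUROG1, the close relative of NEUROG2, had 8 UMIs in 4 of the 14 cells, and 8 UMIs in 5 of the 9161 cells. DLX5 and GAD2, which mark the GABAergic lineage, had 0 UMIs in the 14 cells, which allows up to 42.9 CPM (3 UMIs), against 383.5 and 159 CPM in the cells with neither gene. DLX2 was lower but present, at 143 CPM (68.5 to 263) against 732 CPM. As 11 of the 14 cells were in cluster 5, the 855 cluster 5 cells with neither gene are a nearer reference. These 855 cells had GADD45G at 155 CPM, HES6 at 145 CPM, INSM1 at 77.0 CPM, DLX5 at 108 CPM and DLX2 at 804 CPM. Their GAD2 level was 44.9 CPM, near the limit of 42.9 CPM, so the 0 UMIs of GAD2 do not set the 14 cells apart from cluster 5.

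The picture was less distinct over all 118 cells with either gene, which include these 14. There DLX2 had 742 CPM (674.5 to 815) and GAD2 44.1 CPM (28.8 to 64.6), against 732 and 159 CPM in the cells with neither. Cells of cluster 5 with neither gene had GAD2 at 44.9 CPM (38.8 to 51.7), an interval that overlaps that of the 118 cells. The 5 listed genes of excitatory neurons summed to 39.0 CPM (24.7 to 58.5) in the 118 cells and 40.8 CPM (39.0 to 42.7) in the cells with neither. Among them FEZF2 had 14 UMIs in the 118 cells, SLC17A6 had 1 and SLC17A7 none.

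**Figure D4:**
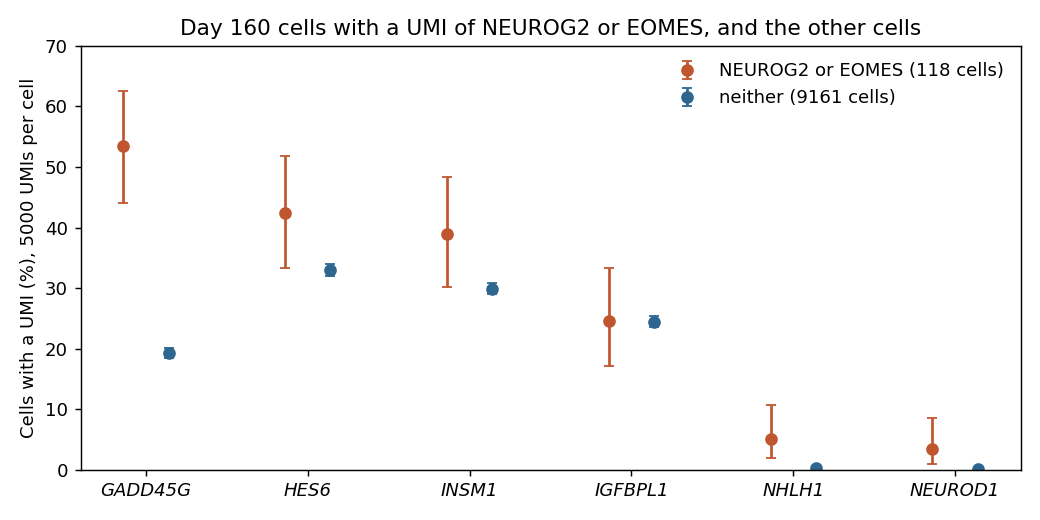
Share of day 160 cells with a UMI of each gene, in percent of cells thinned to 5000 UMIs with 95% Clopper-Pearson bars, for the 118 cells with NEUROG2 or EOMES and the 9161 cells with neither. GADD45G is seen in 53.4% of the 118 cells and 19.2% of the others, while the shares for IGFBPL1 overlap. In the 855 cluster 5 cells with neither gene, not drawn apart, GADD45G is seen in 35.2%.

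The genes most like each of the 8 were the 3 with the highest Pearson correlation of log counts across the cells of a library, among all genes seen in 1% of cells or more. Such correlations describe cells that share a library and differ in depth. At day 160, over 9972 cells, EOMES was the gene most like NEUROG2 (r = 0.42), followed by PPP1R14C (r = 0.28), which was also next after NEUROG2 for EOMES (r = 0.26). PTMA and CDK6 were among the 3 genes most like HES6 (r = 0.35 and 0.34), and SOX4 and DLX2 led for GADD45G (r = 0.40 and 0.37). DLX5 was the gene most like INSM1 (r = 0.53), and DLX6-AS1 and DLX5 led for IGFBPL1 (r = 0.59 and 0.57). At day 220, over 524 cells, IGFBPL1 had ST8SIA5, NRXN3 and DLX5 (r = 0.65, 0.65 and 0.61). GADD45G had AL161910.1 and RHBDL3 first (r = 0.42 and 0.37). INSM1 had TMEM131L, ATCAY and CERS6 (r = 0.34, 0.33 and 0.32), and its r with DLX5 was 0.14. NEUROG2, NEUROD1, EOMES and NHLH1 had too few cells at day 220 for this measure, and NEUROD1 and NHLH1 too few at day 160.

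The wider pathway was read from 45 companion genes in 7 lists, of which 23 reached 10 CPM. Of these, 6 were at least 2-fold lower at day 220, 4 were at least 2-fold higher and 13 lay between, beside 5.15% lower and 22.8% higher of the 10167 genes counted, with a median log2 difference of -0.44 against 0.14 over all genes counted. Among the proneural factors, NEUROG1 had 2 UMIs at day 220 and 58 at day 160, NEUROD2 3 and 72, and NEUROG3 and NEUROD4 none at either day. Of the 3 listed Notch genes that reached 10 CPM, the ligands DLL1 (11.6 CPM at day 220 and 30.8 CPM at day 160) and DLL3 (11.2 and 36.2 CPM) were lower, 2.66-fold and 3.23-fold, and the receptor NOTCH1 had 58.6 and 88.8 CPM.

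Of the 7 listed repressors that reached 10 CPM, HES5 and ID3 were lower and HES1, HEY1, ID2, ID4 and REST lay between. ID3, which binds E proteins and so blocks bHLH pairing, had 6.12 CPM at day 220 and 19.8 CPM at day 160. SOX11, a factor of young neurons, had 163 and 351 CPM and was 2.15-fold lower, whereas SOX4 had 1762 and 1911 CPM. Centred on genes of like intron length, SOX11 had a log2 difference of -0.78, short of 2-fold. HES5, ID3, DLL1 and DLL3 stayed past it, at -2.56, -1.08, -1.27 and -1.26. The higher genes were TCF12, CBFA2T2, NFASC and GADD45A. TCF12 had 546 CPM at day 220 and 97.9 CPM at day 160, but it carries 371213 bases of intron, and centred on genes of like intron length its log2 difference was -0.11, against 2.47 as measured. TCF3 and TCF4, the other E proteins, had 49.6 and 322 CPM at day 220, against 61.0 and 262 CPM at day 160, and centred in the same way their log2 differences were -0.37 and -2.28, against -0.29 and 0.30 as measured.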

How the data were processed

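Files held UMI counts, unnormalized, for every gene in every barcode, as the authors deposited them, and the file headers name Cell Ranger 7.0.1. The submitters' processing notes list hg38, Seurat 4 and Cell Ranger 7. The 10x Chromium 3′ kit was version 3.1, per the labels' protocols. The sources used here do not say whether intronic reads were counted or whether strand was used. The day 220 protocol text names the earlier day, and libraries were grouped by their time-point label.

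The 8 genes, the companion lists and the marker lists were chosen with earlier results of these data known. Counts were summed over kept cells and scaled to CPM, and differences were log2 of day 220 CPM + 1 over day 160 CPM + 1. Intervals are exact 95% Poisson (levels), conditional binomial (ratios) and Clopper-Pearson (shares). Each library was clustered alone in scanpy 1.11.5 (10000 counts per cell, 2000 variable genes, 30 components, 15 neighbours, Leiden resolution 0.5). A cluster was named with at least 3 listed markers among its 30 leading genes, 1 of them among the first 10. Scrublet marked 6 barcodes at day 220 and 583 at day 160 as doublets, and they were kept, as the cell rule has no doublet filter. Day 160 cluster 9, of which 88.9% were so marked, is left unnamed. Intron lengths came from GENCODE release 29 on GRCh38, and promoters from RefSeq, which matched 7 of the 8 genes. Named genes were the 8, the companions and the 3 most alike per gene. The scripts were tested on simulated data. Some genes that meet this rule are not reported here.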

Additional observations from a re-analysis of the deposited data

Results flagged for a closer look

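Barcodes that the cell filter left out, which no comparison uses, also held UMIs of these genes, counted here only as a sum over the 8. At day 220, 152 such barcodes held a summed level of 54.9 CPM (46.9 to 63.9), against 111.5 CPM in the kept cells. At day 160, 3046 such barcodes held 259.7 CPM (254 to 266), against 297 CPM in the kept cells. Their presence outside the kept cells is the reason for listing them. No control library exists to set beside them.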

How the results depend on the processing

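With 1 library per day, all differences are between 2 libraries, and day cannot be told apart from culture or library preparation. No paired analysis was possible because each day had 1 library. Of the 8 genes, 5 were at least 2-fold lower at day 220 (no minimum level), and 5 or 6 were under every alternative tried except centring on intron length, which left 1. The centring was done on CPM + 1, a scale that shrinks the differences of NEUROG2, EOMES, NEUROD1 and NHLH1, genes of few CPM. That centring also gave 1046 higher genes of all counted, against 2318, and 2 higher companions, against 4, and turned TCF12 to -0.11. A minimum of 1 CPM or none gave 4047 higher genes. A minimum of 50 CPM gave 221 lower genes, against 524, with 1010 higher, and 3 lower companions, against 6. Of the 88 log2 differences of the 8 genes under alternatives, 51 moved by less than counting error, and NEUROD1 and NHLH1 changed sign when centred. Across alternatives the log2 difference ran between -1.91 and -0.95 for HES6, -1.55 and -0.86 for INSM1, -3.26 and -1.89 for GADD45G, -1.22 and -0.71 for IGFBPL1, -3.34 and -0.997 for NEUROG2, -3.06 and -0.89 for EOMES, -1.23 and 0.08 for NEUROD1, and -0.66 and 0.17 for NHLH1. Leaving out day 160 cluster 9, an alternative chosen after seeing the data, left all 5 counts within 1 of those given. The cause of each move was not tested, except that a higher or lower minimum changes which genes are counted.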

Other observations

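At day 220 the 3 genes most like HES6 across cells were ACAT2, FDPS and SQLE (r = 0.38, 0.34 and 0.32 over 524 cells), which encode enzymes of cholesterol synthesis. At day 160 the correlations of the same pairs over 9972 cells were 0.025, 0.050 and 0.0017, and the 3 enzymes were seen in 6013, 7931 and 7157 of those cells. These pairs were picked for a high r at day 220, which favours a lower r at the other day. Cells of day 160 were also shallower. The part of either in the lower r was not tested. PTMA and CDK6, among the 3 genes most like HES6 at day 160 (r = 0.35 and 0.34), had 0.24 and 0.12 at day 220. The correlation of HES6 with UMIs per cell was -0.0098 at day 220 and -0.064 at day 160. For IGFBPL1 and DLX5, by contrast, r was 0.61 at day 220 and 0.57 at day 160.

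At day 160, 14 thinned cells had UMIs of at least 5 of the 8 genes, and 12 of them were in cluster 5. The single cell with 7 of the 8 was in cluster 3. None of the 14 was marked as a doublet.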
